A study of Mus musculus with 18 samples.

Results

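A set of 35 genes of fatty acid oxidation, ketone body formation and the nuclear receptor PPARα was followed in mouse liver after ischemia and reperfusion, with and without oridonin. The members were chosen by gene symbol, with earlier results of these data known, and make up 35 of the 56691 genes in the deposited table. They fall into 19 mitochondrial genes, 4 peroxisomal genes, and 12 genes that encode PPARα, its co-acting factor Creb3l3 and 10 targets it induces. The study holds 18 libraries, 6 in each of 3 groups, all from liver of wild-type (WT) C57BL/6 mice. Mice of the IR-Ori group had a clip on the portal triad for 1 h, so that the median and left lobes, about 70% of the organ, were ischemic, and blood flow then returned for 6 h, with oridonin given. The IR group had the same clamp and reperfusion without oridonin. The sham group had anaesthesia and a laparotomy and no clamp. Oridonin is a diterpenoid from the herb Isodon rubescens. Its dose, route and time, the lobe that was sampled, the age of the mice and whether they had been fed are not stated in the sources used here. Libraries are named below by group and replicate number.

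PPARα is a receptor for fatty acids and their derivatives that pairs with the retinoid X receptor on DNA. In fasting liver it switches on the genes that carry fatty acids into mitochondria and peroxisomes, break them down by β-oxidation and turn the acetyl-CoA into ketone bodies. Hepatocytes take much of their energy from this route, which needs oxygen at its last step, the passing of electrons to the respiratory chain.

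All 35 members passed the filter on low counts. Levels are given as FPKM, the count of a gene scaled to the length of its exons and to the total of its library. Total counts were 12770586 to 16536186 in IR-Ori, 12449529 to 16625908 in IR and 12755980 to 19798188 in sham. Mitochondrially encoded genes took 14.1 to 32.0% of the counts in IR-Ori, 6.52 to 42.9% in IR and 10.3 to 42.8% in sham. They are part of the library total, so less of it is left for all nuclear genes together where this share is larger. The FPKM of a single nuclear gene can go either way. The labelled tissue was checked against 7 hepatocyte markers such as albumin. None of these was at 0, and their summed level was 27123 to 41936 FPKM in IR-Ori, 24375 to 33891 in IR and 14049 to 48844 in sham. The 35 members took 1.29 to 3.002% of the nuclear counts in IR-Ori, 1.22 to 3.60% in IR and 2.27 to 2.91% in sham. Since no label ties the libraries of a group to separate animals, a p-value here speaks of the spread between libraries, which may be technical.

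Most of the members did not pass the test in any comparison, and those that did belong to the PPARα-induced genes. In IR against sham, which addresses the effect of ischemia and reperfusion, the lipid droplet gene Plin2 rose and no member fell (edgeR, adjusted p under 0.05), where 5.52% of the 14595 genes tested rose and 2.36% fell. In IR-Ori against IR, which addresses the effect of oridonin, Plin2, Pdk4 and Acot2 fell and no member rose, where 3.01% of all genes fell and 0.596% rose. These comparisons share the IR libraries, so a library that is high in IR enters both with opposite sign. In IR-Ori against sham 0 members passed, and over all genes 0% rose and 0% fell in edgeR, and DESeq2 called 34 genes higher (0.233%) and 4 lower (0.0274%), with 0 members among them. DESeq2 called 3 members higher and 2 lower in IR against sham (7.63% and 4.83% of all genes), and 0 higher and 3 lower in IR-Ori against IR (3.06% and 6.06%). With limma on log2(FPKM + 1), Plin2 was the 1 member called in IR against sham (3.44% of genes higher, 1.8% lower) and in IR-Ori against IR (0.336% higher, 0.839% lower), and 0 were called in IR-Ori against sham (0% each way). At an unadjusted p under 0.05 in edgeR, 0 members were higher and 4 lower in IR-Ori than in sham, beside 6.34% and 3.66% of all genes. At the same level 4 were higher and 4 lower in IR than in sham (13.6% and 9.87% of all genes), and 0 higher and 5 lower in IR-Ori than in IR (9.81% and 14.4%). In bulk tissue, fewer cells of a type and less RNA per cell cannot be told apart.

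**Figure D1:**
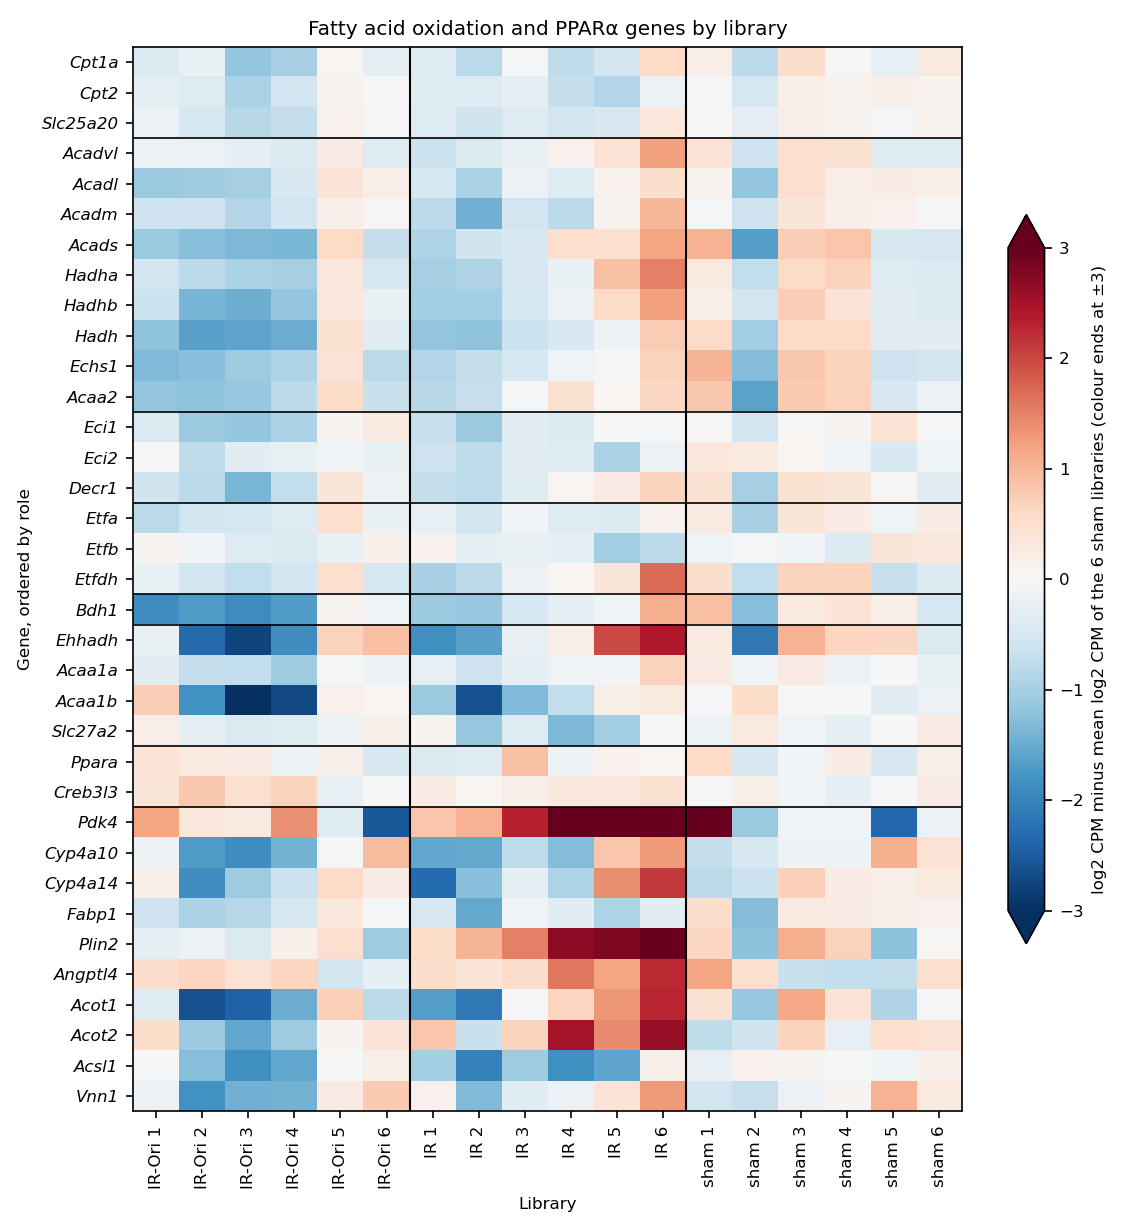
Heat map of the 35 members (rows, ordered by role) in the 18 libraries (columns, by group), as log2 CPM minus the mean log2 CPM of the 6 sham libraries; colours end at ±3, and black lines part groups and roles. Plin2 and Pdk4 are darkest in IR 4 to IR 6, with Pdk4 as dark in sham 1, and IR 6 is the highest IR library on this scale for 30 of the 35 members.

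Ppara itself, which encodes the receptor, did not pass in any comparison. Its lowest, median and highest values were 7.19, 11.6 and 15.2 FPKM in IR-Ori, 6.03, 9.88 and 19.8 in IR and 7.05, 10.4 and 14.9 in sham. The 3 ranges overlapped along most of their length. Its log2 fold change was 0.03 ± 0.24 (SE) in IR against sham (edgeR, adjusted p = 0.948), 0.03 ± 0.24 in IR-Ori against IR (0.954) and 0.06 ± 0.24 in IR-Ori against sham (0.927). Creb3l3, a transcription factor held in the endoplasmic reticulum membrane that acts with PPARα in fasting, had 90.5, 146 and 176 FPKM in IR-Ori, 99.2, 131 and 166 in IR and 87.3, 105 and 116 in sham. Every sham library was below the medians of the other groups, although the ranges overlapped. Its differences did not pass the test, at 0.25 ± 0.19 in IR against sham (edgeR, adjusted p = 0.458), 0.13 ± 0.19 in IR-Ori against IR (0.697) and 0.38 ± 0.19 in IR-Ori against sham (0.498). Partners and regulators of PPARα were counted as a list of 16 genes, with the retinoid X receptors, the coactivator genes Ppargc1a and Ppargc1b and the corepressor gene Ncor1 among them. In edgeR, 0 of the 16 passed in any of the 3 comparisons, and their median log2 fold changes were -0.06 in IR against sham, 0.19 in IR-Ori against IR and 0.08 in IR-Ori against sham.

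Plin2 (ENSMUSG00000028494, GRCm39 chromosome 4, 86566623 to 86588297, minus strand) encodes perilipin 2, the coat protein of lipid droplets in hepatocytes. It had 40.0, 75.2 and 123 FPKM in IR-Ori (lowest, median and highest), 101, 437 and 763 in IR and 35.5, 105 and 193 in sham. By FPKM IR 2 to IR 6 were above every library of the other groups. IR 2 and IR 3 had 195 and 261 FPKM, and IR 4, IR 5 and IR 6 had 613, 763 and 686. IR 1, at 101 FPKM, lay within the IR-Ori and sham ranges. Plin2 fell in IR-Ori against IR by 2.39 ± 0.48 on the log2 scale, 5.24-fold (edgeR, adjusted p = 0.0114). On CPM with TMM scaling (trimmed mean of M-values) it was lower in IR-Ori in 36 of 36 pairs of libraries, the 1 member whose groups did not overlap there, where 1.27% of all genes were lower and 0.644% higher without overlap. On the same scale 0 members were without overlap in IR against sham (2.52% of all genes higher, 1.37% lower) and 0 in IR-Ori against sham (0.178% higher, 0.0822% lower). Pairs of libraries are counted on this scale throughout. On FPKM the Plin2 ranges of IR-Ori and IR overlapped. In IR against sham Plin2 rose by 1.99 ± 0.47, 3.96-fold (adjusted p = 0.0143), and it was higher in 32 of 36 pairs. On TMM-scaled CPM IR 2, at 617, was below sham 3, at 651. The difference of IR-Ori from sham was -0.40 ± 0.45 (adjusted p = 0.712). Both calls held when any of the 18 libraries was left out, with log2 fold changes of -2.56 to -2.13 in IR-Ori against IR and 1.73 to 2.23 in IR against sham.

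Pdk4 (ENSMUSG00000019577, chromosome 6, 5483351 to 5496309, minus strand) encodes the kinase that shuts off pyruvate dehydrogenase and so spares glucose when fat is burned. It had 0.42, 3.15 and 6.84 FPKM in IR-Ori, 3.87, 33.0 and 362 in IR and 0.51, 2.38 and 37.9 in sham. IR 6 alone reached 362 FPKM and IR 4 and IR 5 had 53.6 and 51.9, whereas IR 1 and IR 2, at 3.87 and 6.25, lay inside the IR-Ori range. In sham, 37.9 FPKM came from sham 1, and the other 5 sham libraries had 0.51 to 2.59. Pdk4 fell in IR-Ori against IR by 4.51 ± 1.20 on the log2 scale (edgeR, adjusted p = 0.0422). This call held in 8 of the 18 fits that left out a library, and was lost without sham 6, without IR 4, IR 5 or IR 6, and without any 1 of the IR-Ori libraries, with adjusted p up to 0.161 and a smallest difference of -2.62. In IR against sham the log2 fold change was 3.39 ± 1.14 (adjusted p = 0.0735), and it passed without sham 1, at 5.43 (adjusted p = 0.00860), or without IR 1. The difference of IR-Ori from sham was -1.12 ± 1.06 (adjusted p = 0.659), and it ran from -1.41 to 0.99 as single libraries were left out.

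Acot2 and Acot1 encode thioesterases that release free fatty acids from acyl-CoA, in mitochondria and in the cytosol. Acot2 (ENSMUSG00000021226, chromosome 12, 84034635 to 84040647, plus strand) had 4.21, 10.1 and 21.3 FPKM in IR-Ori, 9.15, 33.3 and 81.2 in IR and 7.44, 13.7 and 21.9 in sham. IR 4 to IR 6 had 44.6 to 81.2 FPKM and stood above all other libraries. By FPKM IR 1 to IR 3, at 9.15 to 21.9, lay at the level of the other groups. On TMM-scaled CPM IR 1, at 51.8, was above every sham library (highest 46.2) and every IR-Ori library (highest 42.3). Acot2 fell in IR-Ori against IR by 1.85 ± 0.49 on the log2 scale (edgeR, adjusted p = 0.0389). The call was lost without sham 5 or sham 6, without IR 4, IR 5 or IR 6, and without any IR-Ori library other than IR-Ori 5, with adjusted p up to 0.119. In IR against sham the difference was 1.51 ± 0.48 (adjusted p = 0.0572), which passed without IR 1, IR 2 or IR 3, and in IR-Ori against sham it was -0.34 ± 0.47 (0.771). Acot1 (chromosome 12, 84056264 to 84065145) had 2.26, 6.70 and 24.6 FPKM in IR-Ori, 3.70, 20.1 and 66.5 in IR and 6.44, 16.6 and 34.4 in sham, and the ranges overlapped. It did not pass, at -1.50 ± 0.66 in IR-Ori against IR (adjusted p = 0.175), 0.59 ± 0.65 in IR against sham (0.627) and -0.91 ± 0.66 in IR-Ori against sham (0.567). The starts of Acot1 and Acot2 lie 21629 bases apart, and 527 windows of 50 bases occur in both longest transcripts, 23.9% of those of Acot1 and 24.5% of those of Acot2, so how reads divide between them is uncertain.

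**Figure D2:**
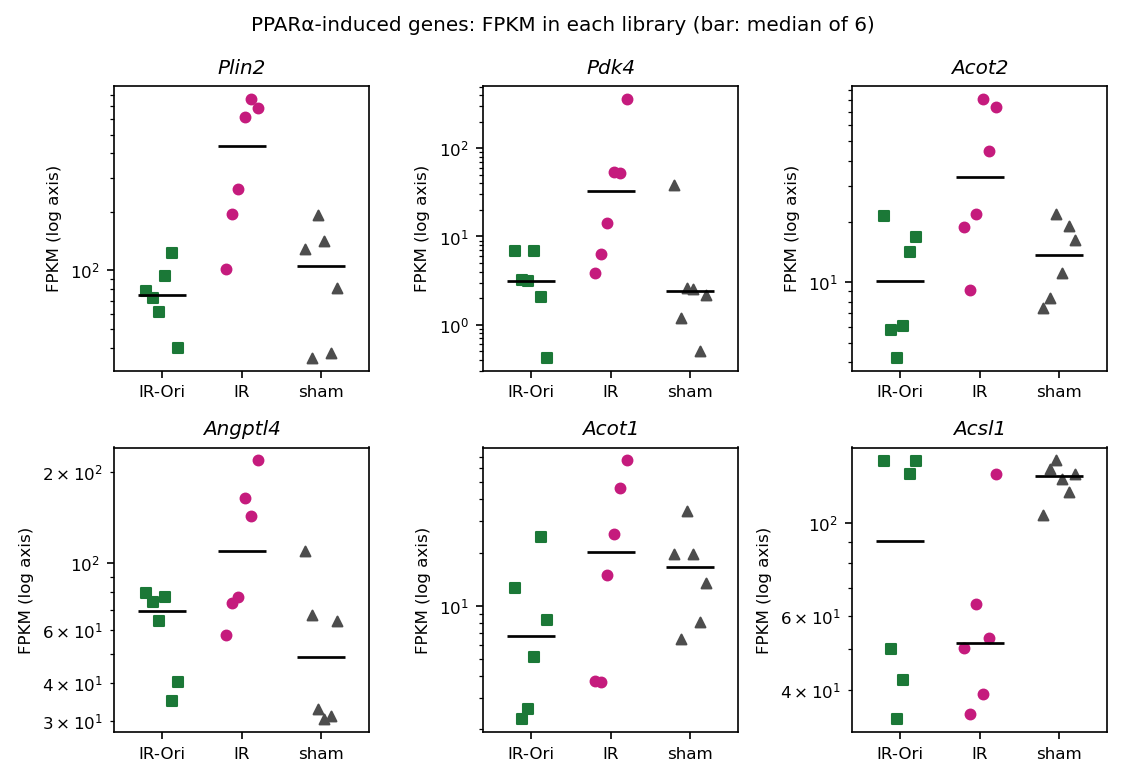
FPKM (log axis) of 6 PPARα-induced genes in each of the 6 libraries of IR-Ori (squares), IR (circles) and sham (triangles); bars are medians. For Plin2, Pdk4 and Acot2 the 3 highest libraries are all IR. In Plin2, IR 2 and IR 3 also lie above the sham and IR-Ori points, with IR 2 close to the highest sham library. The other points overlap, while for Acsl1 the sham libraries sit at 104 to 141 and 5 of the 6 IR libraries below them.

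The other induced genes did not share 1 direction. Angptl4, a secreted inhibitor of lipoprotein lipase, had 34.9, 69.5 and 79.9 FPKM in IR-Ori, 57.7, 110.1 and 219 in IR and 30.4, 48.7 and 109.7 in sham. Its 3 highest libraries were IR 4 to IR 6, and the ranges overlapped. It differed by 1.04 ± 0.38 in IR against sham (edgeR, adjusted p = 0.1003), which passed without sham 1 at 1.29 (adjusted p = 0.0414), by -0.93 ± 0.38 in IR-Ori against IR (0.148) and by 0.11 ± 0.38 in IR-Ori against sham (0.921). Acsl1, which joins long-chain fatty acids to coenzyme A, ran the other way. It had 34.0, 90.5 and 140.5 FPKM in IR-Ori, 35.1, 51.8 and 130.4 in IR and 104, 129 and 141 in sham. The sham libraries lay close together, 5 of the 6 IR libraries were below all of them, and the IR-Ori libraries formed a low trio (IR-Ori 2, 3 and 4, at 34.0 to 50.1) and a high trio (131 to 140.5). The difference of IR from sham was -1.04 ± 0.39 (adjusted p = 0.107), and -1.46 without IR 6 (adjusted p = 0.0216). DESeq2 called it lower (-1.06, adjusted p = 0.0400).

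Fabp1, the fatty acid binding protein of the hepatocyte cytosol, had the highest level of the members. It had 4445, 6388 and 11425 FPKM in IR-Ori, 3473, 6288 and 8855 in IR and 3480.4, 10434 and 12501 in sham. Sham 2 was far below the other sham libraries, and 5 of them were above every IR library. The log2 fold change was -0.65 ± 0.32 in IR against sham (edgeR, adjusted p = 0.228), 0.19 ± 0.32 in IR-Ori against IR (0.744) and -0.46 ± 0.32 in IR-Ori against sham (0.552). Cyp4a14 and Cyp4a10, fatty acid ω-hydroxylases that respond strongly to PPARα agonists in rodents, varied widely within groups. Cyp4a14 had 200.5, 688 and 1187 FPKM in IR-Ori, 125, 555 and 3074 in IR and 435, 876 and 1326 in sham. IR 5 and IR 6, at 2556 and 3074 FPKM, exceeded every other library. Its differences were 0.48 ± 0.59 in IR against sham (adjusted p = 0.672), -0.77 ± 0.59 in IR-Ori against IR (0.420) and -0.30 ± 0.59 in IR-Ori against sham (0.851). Cyp4a10 lay at 184 to 1325 FPKM in IR-Ori, 192 to 1593 in IR and 417 to 1518 in sham. Vnn1, which encodes a pantetheinase, lay at 9.14 to 57.4 FPKM in IR-Ori, 15.1 to 76.6 in IR and 20.1 to 71.6 in sham. Neither passed in any of the 3 comparisons. Cyp4a10 shares 25% of its 50-base windows with Cyp4a32 and 15.3% with Cyp4a31, so its count is uncertain, and it shares 0 with Cyp4a14.

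Of a list of 30 other genes known to be induced by PPARα, 27 were tested, and Cidec was the 1 that passed. Cidec, another lipid droplet protein that enlarges the droplets, was at 7.597 ± 4.77 FPKM in IR-Ori, 34.4 ± 39.2 FPKM in IR and 3.96 ± 1.59 FPKM in sham (SD of 6 libraries each). It rose in IR against sham by 2.93 ± 0.56 on the log2 scale (edgeR, adjusted p = 0.00428) and fell in IR-Ori against IR by 1.98 ± 0.54 (adjusted p = 0.0470). The rise held with each of the 18 libraries left out, and the fall was lost in 13 of those 18 fits, with adjusted p up to 0.172, and with the mitochondrial share of each library as a covariate (adjusted p = 0.210). Plin2 and Cidec, both of the droplet surface, passed in the same direction in each of these comparisons. The median log2 fold change of the 27 genes was -0.17 in IR against sham, -0.33 in IR-Ori against IR and -0.42 in IR-Ori against sham.

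Plin2 is also made by cells other than hepatocytes, and markers of several other cell types moved with it. Of 11 neutrophil markers 8 were tested, and 8 rose in IR against sham and 2 (S100a9 and Clec4d) fell in IR-Ori against IR. Their summed level over all 11 was 7.68 to 63.6 FPKM in IR-Ori, 67.5 to 307 in IR and 3.99 to 26.6 in sham. Of 8 monocyte and recruited macrophage markers 7 were tested, and 6 rose in IR against sham and 5 fell in IR-Ori against IR, with summed levels of 65.2 to 120.4 FPKM in IR-Ori, 92.0 to 133 in IR and 55.3 to 106 in sham. The median log2 fold change of the 7 was 2.32 in IR against sham. The median sum was 124 FPKM in IR and 81.3 in sham, so the sum changed less than most of these markers. No marker of either list was at 0 in all libraries. Markers of adipocytes, which are rich in Cidec, summed to 2.72 to 7.49 FPKM in IR-Ori, 0.51 to 6.01 in IR and 2.01 to 11.8 in sham, with 1 of 6 tested and 0 passing. Of 8 endothelial markers 4 (Pecam1, Lyve1, Cdh5 and Flt1) rose in IR against sham and 0 passed in IR-Ori against IR, with summed levels of 15.7 to 31.4 FPKM in IR-Ori, 21.3 to 56.1 in IR and 13.1 to 39.7 in sham. Of 8 stellate cell markers 1 (Pdgfrb) rose in IR against sham, with summed levels of 39.65 to 80.2 FPKM in IR-Ori, 57.7 to 93.2 in IR and 47.3 to 71.2 in sham. Of 6 cholangiocyte markers Sox9 alone rose in IR against sham and fell in IR-Ori against IR, and the list summed to 11.7 to 36.7 FPKM in IR-Ori, 40.8 to 83.3 in IR and 18 to 57.8 in sham. Of 8 Kupffer cell markers, 7 hepatocyte markers, 5 erythroid markers and the 5 tested of 8 B and T cell markers, 0 passed in any comparison. The part of these cells in the Plin2, Cidec, Pdk4 and Acot2 results was not tested.

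Promoter windows of the 3 called members and of Fabp1 are shown because they hold, or lack, the letters of the element that PPARα is known to bind. Each runs from 250 bases before the RefSeq start to 50 bases after it, 5′ to 3′ on the gene's strand, in build GRCm38.p6, which differs from the GRCm39 of the gene positions above. Capitals mark the matches of 3 patterns, searched on both strands: AGGNCANAGGNCA, a direct repeat with 1 base between its parts as PPARα and its partner bind it, AGGTCA, a single part of that repeat, and CCAAT.
Plin2 (chr4:86670010-86670309, minus strand): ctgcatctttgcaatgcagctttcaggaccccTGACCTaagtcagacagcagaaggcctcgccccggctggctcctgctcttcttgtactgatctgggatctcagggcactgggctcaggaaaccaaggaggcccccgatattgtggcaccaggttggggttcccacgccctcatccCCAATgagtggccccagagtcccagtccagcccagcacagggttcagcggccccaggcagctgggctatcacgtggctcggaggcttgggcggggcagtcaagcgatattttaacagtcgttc
Pdk4 (chr6:5496229-5496528, minus strand): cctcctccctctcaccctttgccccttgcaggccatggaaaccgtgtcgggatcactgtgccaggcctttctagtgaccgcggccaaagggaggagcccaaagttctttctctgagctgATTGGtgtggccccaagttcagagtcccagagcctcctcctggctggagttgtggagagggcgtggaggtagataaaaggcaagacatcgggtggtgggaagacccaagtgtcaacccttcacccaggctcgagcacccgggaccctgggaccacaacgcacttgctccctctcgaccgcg
Acot2 (chr12:83987611-83987910, plus strand): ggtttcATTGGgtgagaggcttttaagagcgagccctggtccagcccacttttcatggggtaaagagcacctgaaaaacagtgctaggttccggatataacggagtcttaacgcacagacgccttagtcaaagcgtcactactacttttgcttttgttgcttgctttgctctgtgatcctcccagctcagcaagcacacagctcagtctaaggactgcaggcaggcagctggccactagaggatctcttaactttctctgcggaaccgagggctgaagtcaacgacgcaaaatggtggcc
Fabp1 (chr6:71199629-71199928, plus strand): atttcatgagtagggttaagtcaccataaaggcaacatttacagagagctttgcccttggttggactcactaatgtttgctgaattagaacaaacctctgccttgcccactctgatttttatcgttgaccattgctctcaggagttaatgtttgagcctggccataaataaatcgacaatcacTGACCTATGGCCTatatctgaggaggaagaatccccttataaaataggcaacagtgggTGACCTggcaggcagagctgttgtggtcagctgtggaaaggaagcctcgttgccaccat
In Fabp1 the repeat lies on the opposite strand, at positions 184 to 196 of the window, and ends 54 bases before the start. It holds AGGTCA at 184 to 189, and a further AGGTCA on the same strand lies at 242 to 247. Plin2 has AGGTCA on the opposite strand at positions 33 to 38 and CCAAT at 178 to 182, and Pdk4 and Acot2 have CCAAT on the opposite strand, at 120 to 124 and at 7 to 11.

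Windows were found for 29 of the 35 members, and Acaa2, Angptl4, Cyp4a10, Cyp4a14, Decr1 and Vnn1 had none in the table. The repeat was in 1 of the 29, Fabp1, and in 0.381% of all 32851 windows of the table. AGGTCA, also where it is part of a repeat, was in 8 members (Acadm, Acadvl, Cpt1a, Creb3l3, Echs1, Fabp1, Plin2 and Slc27a2) and in 16.3% of all windows. CCAAT was in 15 members and in 37.4% of all windows. Of the 3 members that fell in IR-Ori against IR, 1 had AGGTCA, 3 had CCAAT and 0 had the repeat in these letters. Hadha and Hadhb, which encode the 2 subunits of the trifunctional protein, start head to head on chromosome 5, and their windows share 228 bases.

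**Figure D3:**
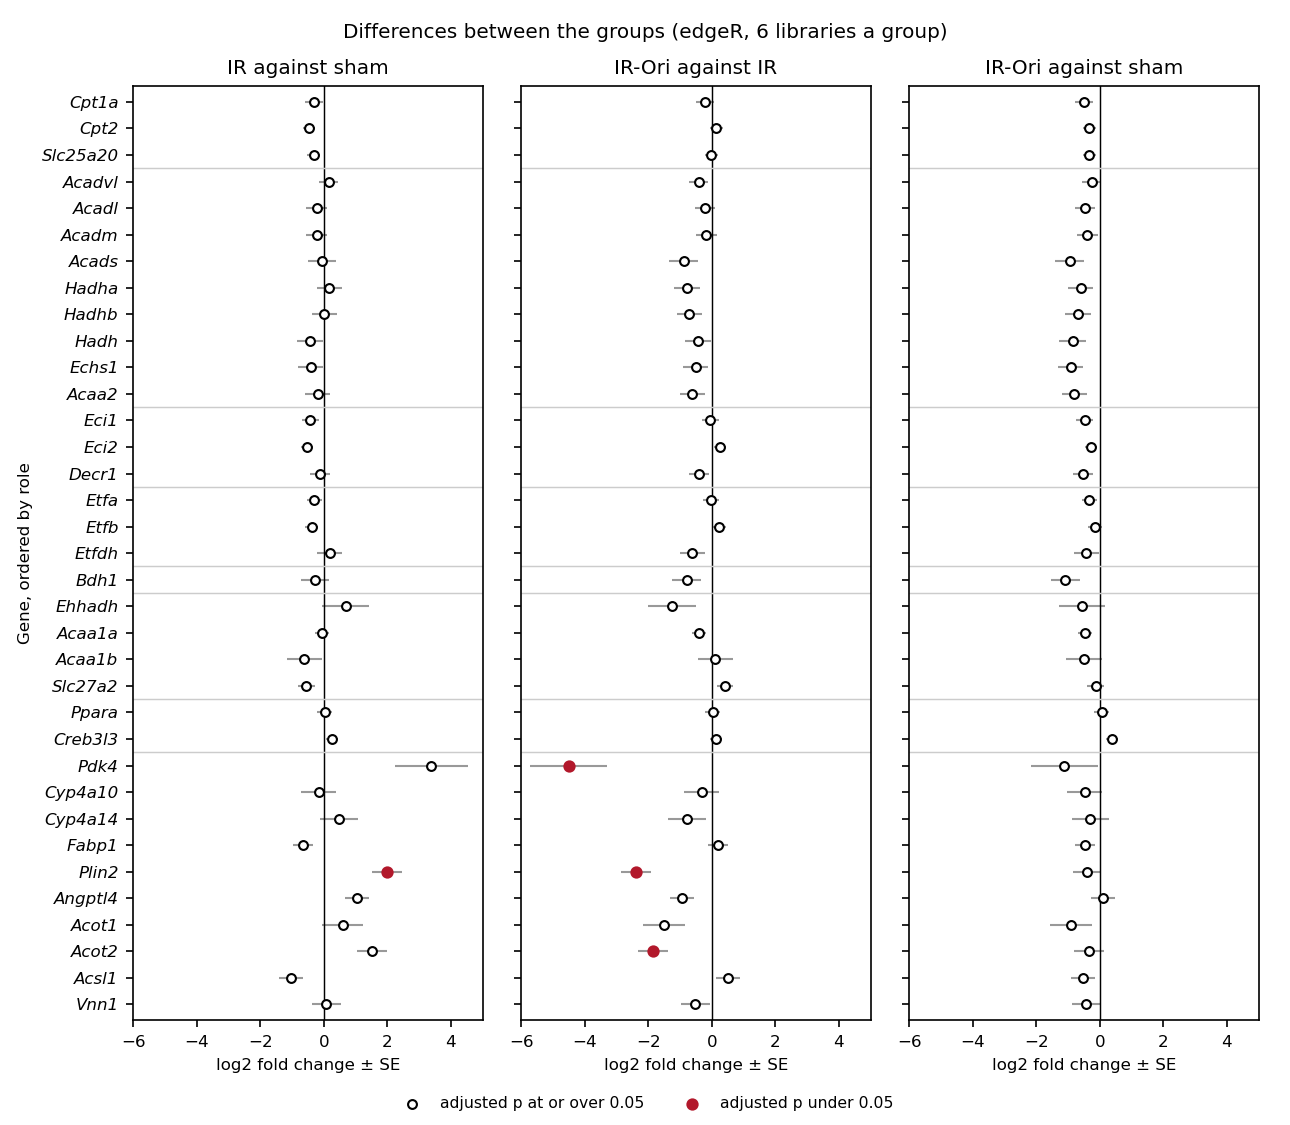
Log2 fold change ± SE (edgeR, 6 libraries a group) of the 35 members, ordered by role, in IR against sham, IR-Ori against IR and IR-Ori against sham; filled points have an adjusted p under 0.05. Plin2 is filled at 1.99 in the left panel, Plin2, Acot2 and Pdk4 at -2.39, -1.85 and -4.51 in the middle panel, and no point is filled in the right panel.

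Of the 3 genes of fatty acid entry into mitochondria, 0 passed in any comparison. Cpt1a, the outer membrane carnitine palmitoyltransferase that limits the rate of the whole pathway, had 15.03, 28.8 and 38.1 FPKM in IR-Ori, 21.8, 27.0 and 50.4 in IR and 19.9, 38.3 and 54.1 in sham. The ranges overlapped, with sham 2 as the lowest sham library. Cpt1a differed by -0.30 ± 0.28 in IR against sham (edgeR, adjusted p = 0.567), -0.21 ± 0.28 in IR-Ori against IR (0.663) and -0.50 ± 0.28 in IR-Ori against sham (0.501). Cpt2, its inner membrane counterpart, had 26.5, 44.5 and 59.0 FPKM in IR-Ori, 33.7, 40.4 and 46.4 in IR and 35.8, 55.9 and 65.3 in sham. By FPKM the IR libraries were tight, but on log2 CPM their standard deviation was 0.27, the same as in sham. IR was higher than sham in 4 of 36 pairs. Its differences were -0.47 ± 0.20 in IR against sham (adjusted p = 0.147), 0.14 ± 0.20 in IR-Ori against IR (0.664) and -0.33 ± 0.20 in IR-Ori against sham (0.514). Slc25a20, the carnitine-acylcarnitine carrier between them, had 18.9 to 39.5 FPKM in IR-Ori, 21.9 to 41.2 in IR and 27.9 to 41.8 in sham.

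The 9 genes of the mitochondrial β-oxidation spiral encode the acyl-CoA dehydrogenases for very long, long, medium and short chains (Acadvl, Acadl, Acadm, Acads), the trifunctional protein (Hadha, Hadhb), the short-chain hydratase and dehydrogenase (Echs1, Hadh) and the thiolase (Acaa2). None of the 9 passed in edgeR, and all 9 had a negative difference in IR-Ori against IR, -0.89 to -0.18, and in IR-Ori against sham, -0.95 to -0.26. With the mitochondrial share of each library as a covariate, 2 of the 9 were above 0 in IR-Ori against IR (median -0.12) and 1 in IR-Ori against sham (median -0.41). In libraries at or above a share of 15%, 3 were above 0 in IR-Ori against IR (median -0.06) and 1 in IR-Ori against sham (median -0.36). In IR against sham 3 were above 0 and 6 below. At an unadjusted p under 0.05, 2 of the 9 (Hadh and Echs1) were lower in IR-Ori than in sham, 0 differed between IR-Ori and IR, and 0 between IR and sham. Acaa2, the most abundant, had 128, 164 and 462 FPKM in IR-Ori, 141, 363 and 469.9 in IR and 97.0, 377 and 556 in sham. The IR-Ori libraries were low apart from IR-Ori 5, which reached 462, and sham 2 was the lowest sham library. Its differences were -0.61 ± 0.40 in IR-Ori against IR (edgeR, adjusted p = 0.341), -0.19 ± 0.40 in IR against sham (0.817) and -0.80 ± 0.40 in IR-Ori against sham (0.498).

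Acadl had 49.4, 66.3 and 144 FPKM in IR-Ori, 60.8, 96.7 and 150.1 in IR and 46.5, 119 and 158 in sham. The highest IR-Ori library was again IR-Ori 5 and the lowest sham library sham 2. It differed by -0.23 ± 0.32 in IR against sham (edgeR, adjusted p = 0.715), -0.23 ± 0.32 in IR-Ori against IR (0.674) and -0.45 ± 0.32 in IR-Ori against sham (0.552). Acads, whose difference was furthest from 0 of the 9 in IR-Ori against IR, had 8.40 to 34.95 FPKM in IR-Ori, 9.54 to 47.9 in IR and 6.94 to 45.1 in sham, and differed by -0.89 ± 0.46 (adjusted p = 0.239). Both genes of the trifunctional protein had similar values, with -0.79 ± 0.40 for Hadha (0.236) and -0.70 ± 0.40 for Hadhb (0.273) in IR-Ori against IR. By FPKM, IR-Ori 5 was the highest IR-Ori library for all 9 genes, and IR 6 was the highest IR library for Acadvl, Acadm, Acads, Hadha, Hadhb, Hadh and Echs1.

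Eci1 and Eci2, isomerases for unsaturated fatty acids, and Decr1, the dienoyl-CoA reductase, feed such acids into β-oxidation. They were counted here with the mitochondrial genes, and where their proteins lie was not tested. Eci2 had 37.5, 55.2 and 72.5 FPKM in IR-Ori, 34.6, 49.3 and 56.1 in IR and 49.2, 67.6 and 80.7 in sham. IR was higher than sham in 3 of 36 pairs. Eci2 differed by -0.54 ± 0.19 in IR against sham (edgeR, adjusted p = 0.0939), and DESeq2 called it lower (-0.55, adjusted p = 0.0215). In IR-Ori against IR the difference was 0.25 ± 0.19 (0.422), and in IR-Ori against sham it was -0.29 ± 0.19 (0.545). Eci2 shares 7.19% of its 50-base windows with Eci3. Decr1 had 18.8, 33.8 and 66.5 FPKM in IR-Ori, 25.2, 50.5 and 76.9 in IR and 24.6, 59.8 and 74.2 in sham, and the ranges overlapped. It differed by -0.13 ± 0.31 in IR against sham (adjusted p = 0.842), -0.41 ± 0.31 in IR-Ori against IR (0.425) and -0.54 ± 0.31 in IR-Ori against sham (0.509). Eci1 lay at 22.1 to 61.1 FPKM in IR-Ori, 26.0 to 65.5 in IR and 33.9 to 72.4 in sham.

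Electrons from the dehydrogenases pass to the flavoprotein made of Etfa and Etfb and on to the oxidoreductase Etfdh, and 0 of these 3 passed. Etfb had 135, 165 and 223 FPKM in IR-Ori, 100.4, 168 and 176 in IR and 143, 179.7 and 247 in sham. Here IR 6 had the lowest FPKM of the IR libraries. The differences of Etfb were -0.38 ± 0.21 in IR against sham (edgeR, adjusted p = 0.274), 0.23 ± 0.21 in IR-Ori against IR (0.504) and -0.16 ± 0.21 in IR-Ori against sham (0.759). Etfa, whose protein is the partner subunit, had 98.0, 109 and 220.2 FPKM in IR-Ori, 105, 139 and 157 in IR and 75.9, 173 and 209 in sham. In this gene IR-Ori 5 stood far above the other IR-Ori libraries, and sham 2 lay below every other library. Etfa differed by -0.30 ± 0.24 in IR against sham (adjusted p = 0.500), -0.03 ± 0.24 in IR-Ori against IR (0.950) and -0.33 ± 0.24 in IR-Ori against sham (0.574). Etfdh was at 9.20 to 22.9 FPKM in IR-Ori, 6.66 to 47.8 in IR and 9.25 to 26.7 in sham.

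Bdh1, which turns acetoacetate into β-hydroxybutyrate, is the 1 member of ketone body formation. It had 5.46, 6.55 and 23.0 FPKM in IR-Ori, 7.99, 17.6 and 42.0 in IR and 8.51, 26.3 and 39.0 in sham. IR-Ori had the lowest median, and its ranges overlapped those of the other groups. Its difference was -1.08 ± 0.45 in IR-Ori against sham (edgeR, adjusted p = 0.498, unadjusted p = 0.0258), -0.80 ± 0.45 in IR-Ori against IR (adjusted p = 0.272) and -0.29 ± 0.44 in IR against sham (0.743). Of a list of 8 other ketone body genes 0 passed in any comparison.

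Of the 4 peroxisomal genes 0 passed, and Acaa1b and Ehhadh varied widely within the groups. Acaa1b and Acaa1a encode the peroxisomal thiolases. Acaa1b had 72.3, 476 and 1362 FPKM in IR-Ori, 135, 399 and 1070.3 in IR and 596, 719 and 1044 in sham. IR-Ori 2, 3 and 4, at 72.3 to 200.4 FPKM, and IR 1 to IR 4, at 135 to 484, lay below every sham library, while IR-Ori 1 was above all others. Its differences were -0.61 ± 0.56 in IR against sham (edgeR, adjusted p = 0.555), 0.11 ± 0.56 in IR-Ori against IR (0.921) and -0.50 ± 0.56 in IR-Ori against sham (0.712). Acaa1a had 22.1, 34.4 and 46.3 FPKM in IR-Ori, 32.1, 44.4 and 70.4 in IR and 37.9, 45.0 and 58.4 in sham. Its groups overlapped, with IR-Ori higher than sham in 5 of 36 pairs. It differed by -0.06 ± 0.22 in IR against sham (adjusted p = 0.897), -0.41 ± 0.22 in IR-Ori against IR (0.259) and -0.47 ± 0.22 in IR-Ori against sham (0.498). The longest transcripts of Acaa1a and Acaa1b share 583 windows of 50 bases, 34.0% and 35.5% of their own, so the division of reads between them is uncertain.

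Slc27a2, an acyl-CoA synthetase and transporter for very long chains, had 432, 526 and 781 FPKM in IR-Ori, 267, 438 and 567 in IR and 513, 614 and 719 in sham. IR was higher than sham in 8 of 36 pairs. It differed by -0.55 ± 0.26 in IR against sham (edgeR, adjusted p = 0.212), 0.41 ± 0.26 in IR-Ori against IR (0.332) and -0.14 ± 0.26 in IR-Ori against sham (0.843). Ehhadh, the bifunctional enzyme of the peroxisomal spiral, ranged over 21.4 to 274 FPKM in IR-Ori, 34.0 to 749 in IR and 32.8 to 328 in sham, and IR 5 and IR 6, at 749 and 741, were above all other libraries. On log2 CPM the standard deviation between libraries was larger in IR-Ori than in sham for 4 of the 4 peroxisomal genes, and likewise larger in IR than in sham for 4 of 4. Its median over the 4 was 0.99 in IR-Ori, 0.85 in IR and 0.26 in sham. Over all 35 members it was larger than in sham for 21 in IR-Ori and 24 in IR, where 41.3% and 55% of all genes had a larger standard deviation.

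**Figure D4:**
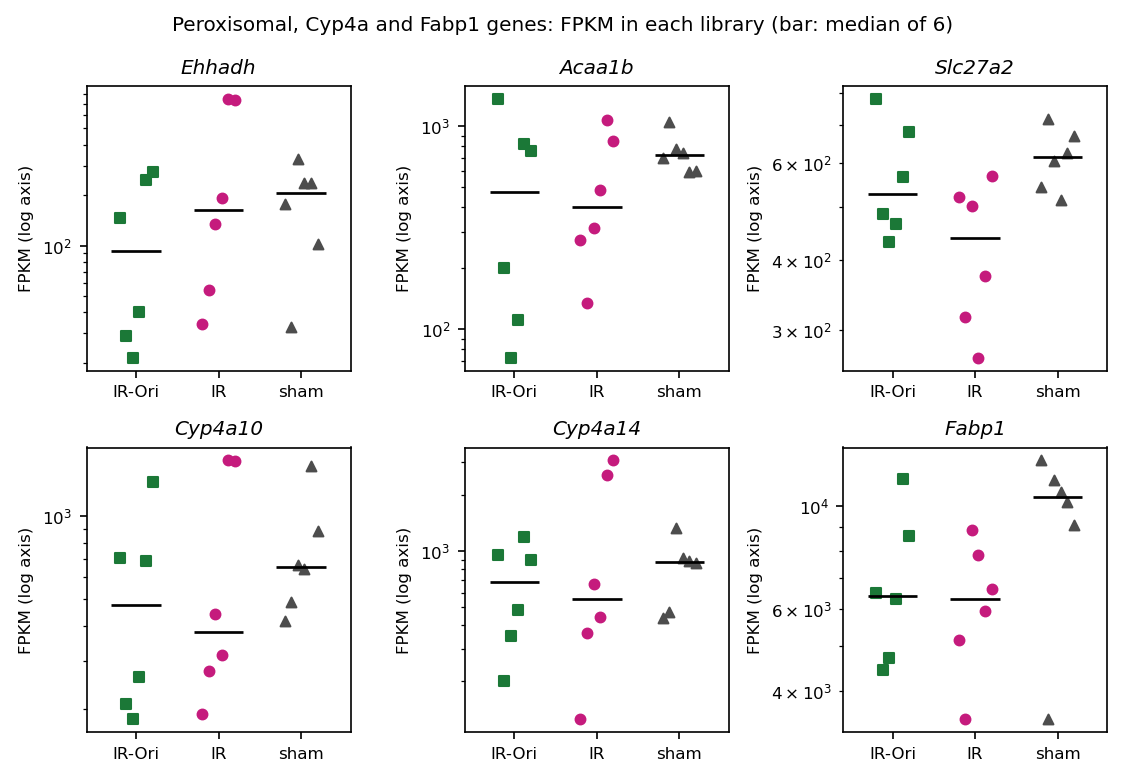
FPKM (log axis) of 3 peroxisomal genes, 2 Cyp4a genes and Fabp1 in each of the 6 libraries of IR-Ori (squares), IR (circles) and sham (triangles); bars are medians. The sham libraries of Acaa1b lie between 596 and 1044, those of IR-Ori spread over 72.3 to 1362 and those of IR over 135 to 1070.3.

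Further lists of mitochondrial and peroxisomal genes, not all of them of fatty acid oxidation, held several that passed in IR against sham, all lower. Over all genes 2.36% were lower and 5.52% higher in that comparison. Of 20 further mitochondrial genes, Acsm1, Acsm5, Auh and Ivd fell and 0 rose. Acsm5, a medium-chain acyl-CoA synthetase, averaged 32.3 ± 7.42 FPKM in IR-Ori, 17.1 ± 4.91 FPKM in IR and 37.0 ± 6.80 FPKM in sham (SD, n = 6 each). It fell in IR against sham by 1.18 ± 0.20 on the log2 scale (edgeR, adjusted p = 0.00233) and rose in IR-Ori against IR by 0.97 ± 0.20 (adjusted p = 0.0152), and both calls held with each of the 18 libraries left out. Acsm1, of the same family, fell in IR against sham by 0.72 ± 0.18 (adjusted p = 0.0176), and Ivd and Auh, which act in leucine breakdown, by 0.77 ± 0.20 (0.0245) and 0.68 ± 0.18 (0.0266). The last 2 calls were lost without IR 4 or IR 5, with adjusted p up to 0.0591 for Ivd and 0.0706 for Auh. Of 22 further peroxisomal genes tested, Amacr, a racemase for branched fatty acids, fell in IR against sham by 0.83 ± 0.22 (adjusted p = 0.0284) and the coenzyme A hydrolase Nudt7 by 1.39 ± 0.39 (0.0354), and 0 rose. Amacr was lost without sham 3, sham 4, IR 4 or IR 5, and Nudt7 without sham 1, sham 4, IR 2, IR 4, IR 5 or IR 6.

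In a list of fatty acid activation, uptake and acyl-CoA handling, 15 genes were tested and 2 passed in IR against sham. There 5.52% of all genes were higher and 2.36% lower. Fabp4, a fatty acid binding protein of adipocytes and macrophages, was at 3.03 ± 2.27 FPKM in IR-Ori, 10.6 ± 8.56 FPKM in IR and 1.35 ± 0.968 FPKM in sham (SD of 6 libraries each). It rose in IR against sham by 2.81 ± 0.55 on the log2 scale (edgeR, adjusted p = 0.00469). Most of the myeloid markers tested and 4 of the 8 endothelial markers given above rose there as well. The part of these cells in the Fabp4 result was not tested. Acaca, the acetyl-CoA carboxylase whose product malonyl-CoA blocks Cpt1a, was at 4.34 ± 1.43 FPKM in IR-Ori, 2.26 ± 0.563 in IR and 3.83 ± 1.34 in sham. It fell in IR against sham by 0.85 ± 0.24 (adjusted p = 0.0367) and rose in IR-Ori against IR by 1.03 ± 0.24 (adjusted p = 0.0263). Its fall was lost without sham 3, sham 4, sham 6, IR 2, IR 3, IR 4, IR 5 or IR 6, with adjusted p up to 0.0978, and its rise without IR 5, IR 6, IR-Ori 3 or IR-Ori 4. Of the 8 periportal and 8 pericentral hepatocyte genes, 0 passed in any comparison.

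The members' median difference was compared with that of all genes. The median log2 fold change of the 35 was -0.16 in IR against sham, -0.41 in IR-Ori against IR and -0.46 in IR-Ori against sham, where the median of all 14595 genes was 0.00, -0.00 and -0.01. Below 0 were 21 of the 35 in IR against sham, 26 in IR-Ori against IR and 32 in IR-Ori against sham. By class, the medians in IR against sham were -0.29 for mitochondrial genes, -0.30 for peroxisomal genes and 0.36 for PPARα and the induced genes. In IR-Ori against IR they were -0.41, -0.15 and -0.65, and in IR-Ori against sham -0.47, -0.49 and -0.42. With the mitochondrial share of each library as a covariate, the median in IR-Ori against IR was -6.59e-05 and 18 of the 35 were below 0, and within the libraries at or above a share of 15% it was -0.02 with 19 below 0.

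With group in the model, the mitochondrial share of a library went with the level of many members. A common slope was fitted over all groups, so the relation inside any single group was not tested. In IR-Ori, IR-Ori 5 had a share of 14.1% and the other libraries 26.8 to 32.0%. Of the 35, 18 were lower and 1, Etfb, was higher where this share was larger, where 23% and 19.9% of all genes were lower and higher (edgeR with group in the model, adjusted p under 0.05). All 9 genes of the mitochondrial spiral were lower, by 0.32 to 0.70 on the log2 scale per 10 percentage points. Acads changed by -0.70 ± 0.09 per 10 points (adjusted p = 1.01e-05) and Acaa2 by -0.59 ± 0.08 (3.54e-05). Among the induced genes the change was -1.40 ± 0.34 for Pdk4 (0.00288), -0.88 ± 0.17 for Acot1 (0.000436), -0.70 ± 0.10 for Plin2 (2.995e-05) and -0.69 ± 0.20 for Cyp4a14 (0.0109). None of the 3 genes of fatty acid entry, nor Ppara or Creb3l3, passed. IR 4, IR 5 and IR 6, which were highest for Plin2, Pdk4 and Acot2, had shares of 14.5, 9.65 and 6.52%, and IR-Ori 5, highest in IR-Ori for 21 members on TMM-scaled CPM, had 14.1%. Sham 2, lowest in sham for 22 members on that scale, had 42.8%.

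With the share as a covariate 3 members passed in IR against sham, 2 higher and 1 lower (7.93% and 4.92% of all genes), and 1 was lower and 0 higher in IR-Ori against IR (1.58% and 0.404%). Plin2 rose in IR against sham by 1.76 ± 0.25 (edgeR, adjusted p = 0.000590) and fell in IR-Ori against IR by 1.65 ± 0.25 (adjusted p = 0.00317). In the same fits Pdk4 was at 2.68 ± 0.84 in IR against sham (adjusted p = 0.0425) and at -2.12 ± 0.86 in IR-Ori against IR (0.180). Acot2 was at 1.33 ± 0.47 (0.0659) and -1.54 ± 0.49 (0.0965), and Eci2 fell in IR against sham by 0.55 ± 0.18 (0.0487). Among libraries with a share under 15%, Plin2 rose by 2.05 ± 0.29 in IR against sham (adjusted p = 0.00835) and Acot2 by 2.25 ± 0.44 (0.0191). Among those at or above 15%, Plin2 differed by 1.75 ± 0.40 in IR against sham (adjusted p = 0.117) and by -1.37 ± 0.34 in IR-Ori against IR (0.222), Pdk4 by 2.51 ± 0.75 (0.231) and -0.94 ± 0.61 (0.627), and Acot2 by 0.20 ± 0.54 (0.900) and -0.69 ± 0.47 (0.647). Of the IR-Ori libraries 1 lay under 15%, so that range has no comparison with IR-Ori. The other libraries with a share under 15% were sham 1, sham 3, sham 4 and IR 4 to IR 6. Both ranges thus had fewer libraries a group than the main fit, and the effect of this on the calls was not tested. What sets the mitochondrial share of a library was not tested.

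**Figure D5:**
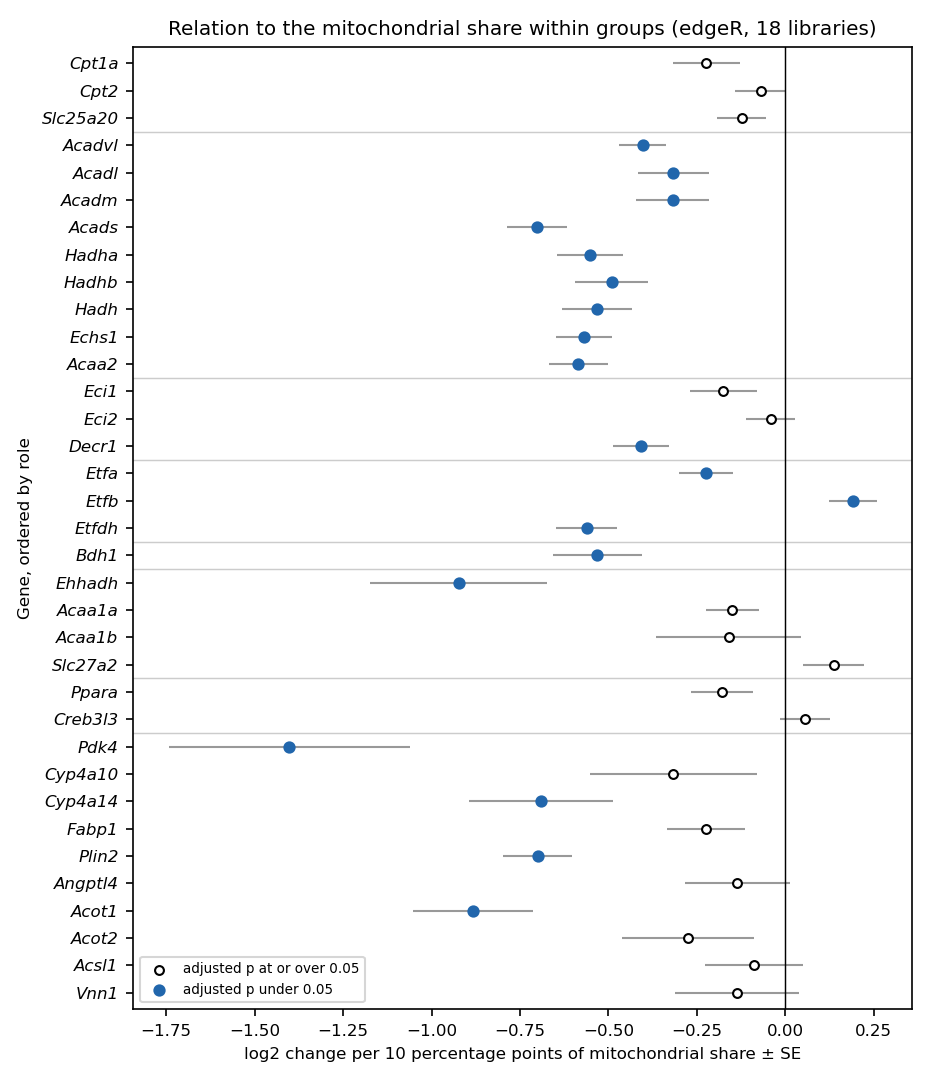
Log2 change ± SE of each member per 10 percentage points of mitochondrial share (edgeR, 18 libraries), ordered by role. Each member has a slope common to all groups, with group in the model, and filled points have an adjusted p under 0.05. The 9 genes of mitochondrial β-oxidation are all filled and below 0, Pdk4 lies furthest left at -1.40 and Etfb, at 0.19, is the filled point above 0.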

How the data were processed

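RNA was sequenced from 18 liver libraries, 6 a group, as the labels assign them. The tools named are cutadapt 1.9.1, HISAT2 2.2.1, DESeq2 (no version) and the build GRCm39, per the submitters' processing notes. How counts were made, and on which annotation, is not given in the sources used here. Deposited values are whole-number counts per gene, not scaled by the authors, and the authors' FPKM, which equal count divided by exonic gene length and library total for 100% of values within 0.0051, with the 37 mitochondrial genes in the total. The gene length is the deposited exonic base count.

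The test on counts was that of edgeR 4.0.16 (R 4.3.3): TMM scaling, filterByExpr (minimum count 10, minimum total count 15, 14595 genes kept), 1 quasi-likelihood fit of group on all 18 libraries with 15 residual degrees of freedom, two-sided F tests, and Benjamini-Hochberg adjustment over all genes within a comparison, with a threshold of 0.05. The common biological coefficient of variation was 0.398, so the spread between libraries, more than counting error, sets the precision. No pair of libraries held identical counts; within groups the smallest chi-square per gene was 16.0. Alternatives were RLE and upper-quartile scaling, removal of mitochondrial genes, no filter or a minimum count of 50, DESeq2 1.42.0, limma 3.58.1 on log2(FPKM + 1) and log2(FPKM + 0.1), the groups compared alone, a replicate block, the mitochondrial share, and leaving out each library. The edgeR procedure was also run on simulated counts, from which no value is given.

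The members, the further lists and the promoter patterns were chosen with earlier results of these data known. Full values are given for called members, Ppara, Cpt1a, Acaa1a, Acaa1b, Acot1, Acot2 and the 2 members with the highest mean FPKM in each role, and for up to 4 called genes of each further list. Angptl4, Acsl1, Acads, Hadha, Hadhb and Ehhadh were named after their values were seen. Of 8 hepatocyte markers 7 were found in the table. Shared sequence between genes was counted in the longest GENCODE M21 transcripts, in windows of 50 bases. Promoter windows are from RefSeq (GRCm38.p6).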

Additional observations from a re-analysis of the deposited data

Results flagged for a closer look

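In a group of 6 libraries, a value was singled out where the gap between the highest or lowest library and its neighbour took more than 0.625 of the group's range (Dixon's criterion). Of 105 groups (35 members in 3 groups) 9 met it. Chance gives about 1 in 20 for independent, normally distributed values. FPKM of genes that vary together are not such values, so the 9 cannot be compared with that rate. In IR-Ori, library 5 stood above the others for 5 mitochondrial genes: Acads at 34.95 FPKM, Hadha at 24.5, Echs1 at 16.2, Acaa2 at 462 and Etfa at 220.2. In IR, library 6 stood above the others for the pyruvate dehydrogenase kinase Pdk4, at 362 FPKM, and for the acyl-CoA synthetase Acsl1, at 130.4. In sham, library 1 stood above the others for Pdk4, at 37.9 FPKM, and library 5 for Vnn1, at 71.6.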

How the results depend on the processing

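Across 31 settings, 3185 differences of members were recomputed; 3136 kept their side of the threshold, 34 lost it, 15 gained it and 0 called differences changed sign, while 154 differences called in neither setting did. Few differences were called as reported, so most of the 3136 were uncalled before and after, and this number does not measure how firm the calls are. With single libraries left out, Plin2 kept both its calls in 18 of 18 fits. In IR-Ori against IR, Pdk4 and Acot2 each kept theirs in 8 of 18. In IR against sham the called members numbered 1 as reported, 2 without a filter, 5 in DESeq2, 3 with the mitochondrial share as a covariate, 2 in libraries under a share of 15%, 0 in libraries at or above it, and 1 to 3 with single libraries left out. In IR-Ori against IR they numbered 3 as reported, 1 in limma on log2(FPKM + 1), 1 on log2(FPKM + 0.1), 1 with the 2 groups alone, 1 with the share as a covariate, 0 in libraries at or above 15%, and 1 to 3 with single libraries left out. In IR-Ori against sham they numbered 0 in every setting run. The fits split at a share of 15% had fewer libraries a group, and the share of all genes called in them was not counted. No scaling moved the median of all genes by over 0.1. With the replicate number as a block, 1 member was called in IR-Ori against IR (Plin2, -2.23, adjusted p = 0.0467, where Pdk4 had 0.109 and Acot2 0.0718) and 1 in IR against sham (Plin2). Of the calls named in the further lists, the block lost that of Acsm1 in IR against sham (adjusted p = 0.0532) and that of Cidec in IR-Ori against IR (0.142), and the other 10 stayed under 0.05. Whether the numbers pair the libraries was not settled. Deviations from the group means correlated at -0.44 to 0.42 over 18 same-numbered pairs, and 2 of 18 libraries correlated best with their own number. In IR against sham the block made the SE smaller for some members, such as Vnn1 (0.26, from 0.45). It made the SE larger for others, such as Plin2 (0.51, from 0.47). No fit under a share of 15% was possible for IR-Ori, with 1 library there. With 6 libraries a group the SE of a member's log2 fold change had a median of 0.39 in IR against sham and reached 1.14. Differences well above their SE also went uncalled there, such as Angptl4 at 1.04 ± 0.38 (edgeR, adjusted p = 0.1003) and Pdk4 at 3.39 ± 1.14 (0.0735). A member that was not called can thus differ by more than its SE. The cause of lost and gained calls was not tested.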
